A study of Saccharomyces cerevisiae with 12 samples.

Results

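The yeast transcript annotation behind this SLAM-seq series of Saccharomyces cerevisiae held 6465 intervals, of which 381 were noncoding RNA genes outside the ribosomal DNA. They were taken by name: every interval whose systematic name starts with YNC, without the 22 that lie in the ribosomal DNA repeat region of chromosome XII. The remaining 6062 intervals were coding genes. The 381 comprised 275 tRNA genes, 76 small nucleolar RNA (snoRNA) genes, 6 spliceosomal small nuclear RNA (snRNA) genes and 24 other noncoding RNA genes. Of the snoRNA genes, 45 were of the box C/D class and 29 of the box H/ACA class.

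SLAM-seq follows new RNA. Cells received 4-thiouracil for 4 min, and after alkylation a read with at least 2 T>C conversions, here a T>C read, was counted as newly made. All strains carried OsTIR1 under pGPD1 with the HIS3 marker, together with BDF2-3xV5-mAID::KanMX and BDF1-3xV5-mAID::URA3. In these strains indole-3-acetic acid (IAA) removes both bromodomain proteins, Bdf1 and Bdf2. The control strain held these alleles alone. The second strain also held pJR15:TRP1, which expresses the ET domain of Bdf1 from the GPM1 promoter with a nuclear localization signal, and is called the ET strain. Each strain was treated with IAA or with DMSO for 25 min, which gave 4 groups of 3 biological replicates, named A to C, and 12 libraries in all.

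Summed S. cerevisiae reads ranged from 6279282 to 11395597 per library, and T>C reads from 90321 to 330857. BDF1, whose sequence the transgene shares, served as a check of the labels. It had 72.6 ± 7.80 T>C reads per 10000000 S. cerevisiae reads of the library in the control strain under DMSO and 421 ± 16.95 in the ET strain (SD, n = 3 each), in the direction that the labels give. Values on that scale, of T>C or of total reads, are called scaled reads.

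tRNA genes, SCR1, RPR1, SNR6 and the snoRNA gene SNR52 are transcribed by RNA polymerase III, the other snoRNA and snRNA genes by RNA polymerase II. A tRNA gene carries its promoter inside the gene, as an A box and a B box, and its transcription ends at a run of T. Box C/D snoRNAs guide 2′-O-methylation of ribosomal RNA through their C box and D box, and box H/ACA snoRNAs guide pseudouridylation. Bdf1 and Bdf2 are factors of RNA polymerase II promoters. The libraries were made from the 3′ ends of mRNA, whereas mature tRNAs and most mature snoRNAs have no poly(A) tail, so the values below are counts in an interval and not levels of mature RNA. Every one of the 381 intervals ran from the start of the RNA gene to 250 bases past its end.

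4 tRNA genes that carry main contrasts among tRNA intervals are shown with the 60 bases that follow each gene. Capitals mark GTTCNA, the core of the B box, inside the gene, and runs of at least 5 T after it. Sequences and positions are from the RefSeq copy of genome build R64, the build that the deposited tables name, and the positions include the 60 bases.

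YNCE0028C, tRNA-Arg, chrV:492292-492424, minus strand: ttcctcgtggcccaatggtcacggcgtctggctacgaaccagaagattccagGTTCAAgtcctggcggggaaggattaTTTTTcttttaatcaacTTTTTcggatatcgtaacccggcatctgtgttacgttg

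YNCD0013C, tRNA-Arg, chrIV:619909-620041, minus strand: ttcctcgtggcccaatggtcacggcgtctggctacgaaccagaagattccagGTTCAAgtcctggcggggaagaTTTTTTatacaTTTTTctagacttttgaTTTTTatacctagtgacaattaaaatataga

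YNCH0003C, tRNA-Thr, chrVIII:116047-116179, minus strand: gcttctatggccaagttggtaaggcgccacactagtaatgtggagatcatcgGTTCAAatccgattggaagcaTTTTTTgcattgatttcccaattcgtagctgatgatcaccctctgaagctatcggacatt

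YNCL0039W, tRNA-Ser, chrXII:784354-784513, plus strand: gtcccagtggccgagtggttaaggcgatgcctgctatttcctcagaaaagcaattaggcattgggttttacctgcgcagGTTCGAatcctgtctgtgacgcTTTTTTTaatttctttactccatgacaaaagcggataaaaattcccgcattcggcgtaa

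The first 2 genes are identical over their 73 bases and, of the bases shown, differ in the 60 that follow. The bases before the genes were not compared. GTTCNA stood on the sense strand within 98.2% of the 275 tRNA genes, and in the first 100 bases of 97.5% of tRNA genes against 11.2% of 5995 protein-coding genes (97.8% and 19.7% on either strand). TTTTT stood in the 60 bases after the end of 98.5% of tRNA genes, of 33.3% of C/D snoRNA genes and of 29.8% of protein-coding genes on the sense strand (98.5%, 51.1% and 47.9% on either strand). These are matches of letters, not mapped sites.

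Of the snoRNA genes, 5 of the C/D class are shown because they hold most of the reads or of the changes described further on. Capitals mark the first TGATGA, the letters of the C box core, and the last CTGA, the letters of the D box core.

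SNR40, chrXIV:89210-89306, plus strand: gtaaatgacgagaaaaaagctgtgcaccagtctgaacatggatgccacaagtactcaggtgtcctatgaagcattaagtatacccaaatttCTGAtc

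SNR41, chrXVI:719148-719242, minus strand: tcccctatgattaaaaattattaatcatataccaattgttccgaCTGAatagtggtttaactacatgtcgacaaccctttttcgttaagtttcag

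SNR70, chrXVI:718887-719050, minus strand: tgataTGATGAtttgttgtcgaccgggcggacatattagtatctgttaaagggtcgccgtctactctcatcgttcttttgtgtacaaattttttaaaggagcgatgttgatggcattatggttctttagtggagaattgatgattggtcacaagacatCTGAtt

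SNR61, chrXII:794486-794575, minus strand: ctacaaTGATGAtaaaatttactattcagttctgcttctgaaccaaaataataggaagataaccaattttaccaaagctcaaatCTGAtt

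SNR72, chrXIII:298554-298651, plus strand: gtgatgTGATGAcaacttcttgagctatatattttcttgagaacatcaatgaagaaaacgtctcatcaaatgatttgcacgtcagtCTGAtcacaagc

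TGATGA stood on the sense strand in the first 100 bases of 84.4% of the C/D snoRNA genes, of 3.45% of the H/ACA genes, of 1.09% of the tRNA genes and of 5.87% of the protein-coding genes (84.4%, 3.45%, 1.82% and 9.87% on either strand). The letters were not found in SNR40 and SNR41. In SNR41 the marked CTGA lies in the middle of the gene and not near its 3′ end as in the others, so it is not shown to be the D box. These too are matches of letters, not mapped boxes. CTGA stood in the same window on the sense strand of 82.2% of C/D snoRNA genes and of 30.4% of protein-coding genes (84.4% and 53.0% on either strand).

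Reads were spread very unevenly over the 381 intervals. SNR40, a box C/D snoRNA, led with a mean of 47651 reads per kilobase over the 12 libraries. It was followed by the tRNA-Arg gene YNCE0028C with 13608 and the tRNA-Thr gene YNCH0003C with 11950 reads per kilobase. LSR1, the U2 snRNA of the spliceosome, reached 3427 reads per kilobase. By T>C reads per kilobase the order changed: YNCE0028C had 382, YNCH0003C 298, SRG1 290.4, the tRNA genes YNCO0011W 207 and YNCK0021W 198, SNR41 178 and SNR40 155. At the other end, 5 intervals had no read in any library and 14 had no T>C read (SUP53, RUF22 and RUF5-1 had neither), 247 had T>C reads in some libraries only, and 120 had at least 1 in every library. Only those 120 could be tested on T>C reads, among 3677 intervals tested in all. On total reads, where a mean of 10 reads was required, 257 of the 381 were tested among 5817 intervals. An interval that falls to 0 leaves the T>C test. This was the case for 62 noncoding intervals that had 0 T>C reads in at least 1 IAA library but in no DMSO library, against 13 with the reverse and 1674 coding intervals with the first pattern. HRA1 (2 reads in all libraries together) and PWR1 (3 reads) were thus not measurable.

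Because the intervals extend past the gene, some of them reach a coding interval on their own strand, and the same read can then count for both. This was so for 85 of the 381, namely 55 tRNA, 23 snoRNA, 1 snRNA and 6 other intervals, while 296 reached none. Some of the 85 touch more than 1 coding interval. In 59 of 90 such pairs the tail of the noncoding interval ran into the start of the coding interval, in 20 pairs the genes themselves overlapped, and in 11 pairs the noncoding interval lay in the 3′ extension of the coding gene. For 14 intervals the whole RNA gene lay inside a coding interval. Among these were the snoRNA genes within EFB1 (SNR18), RPL7A (SNR39), TEF4 (SNR38), RPS22B (SNR44), IMD4 (SNR54), ASC1 (SNR24), NOG2 (SNR191), RPL7B (SNR59) and YGL088W (SNR10), and the tRNA genes within MTC7 (YNCE0005W), YDR278C (YNCD0021C), YER181C (YNCE0029C), YOL013W-A (YNCO0011W) and YPR108W-A (YNCP0016W). Another 29 intervals overlapped a noncoding neighbour on the same strand. Results are given with and without the 85.

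After depletion of Bdf1 and Bdf2 in the control strain fewer noncoding than coding intervals lost T>C reads. Counts were scaled by the summed S. cerevisiae reads of each library, and "fell" and "rose" refer to that scale at a Benjamini-Hochberg adjusted p under 0.05 in edgeR's quasi-likelihood test across all intervals. After IAA 27 of the 120 tested noncoding intervals fell, where 79.7% of all intervals tested did, and 5 rose, where 0.925% of all did. Their median log2 change was −0.27 (quartiles −0.90 and 0.12, range −2.91 to 1.43), against −1.61 for all intervals tested and −1.64 for those outside the group. In the ET strain 25 fell and 7 rose, where 79.6% and 0.789% of all intervals did, with a median of −0.16 against −1.40. SNR7-L and SNR7-S, forms of the U5 snRNA that hold the same reads, are both among the 7. Leaving out control IAA replicate A gave 18 falls in the control strain, and leaving out control IAA replicate B gave 8 rises. Leaving out ET DMSO or ET IAA replicate A gave 4 rises in the ET strain. Of the 27 that fell in the control strain 18 also fell in the ET strain, and 2 of the 5 that rose, out of 7, also rose there.

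The size of these changes depended on the scaling. A scaling moves all intervals of a library together, so the distance between medians is nearly fixed by construction. The median of the noncoding intervals exceeded that of the others by 1.37 log2 units in the control strain and by 1.26 in the ET strain on summed reads. On the S. pombe spike-in reads the noncoding median in the control strain was −0.45, on median-of-ratios factors it was 0.87 and on trimmed-mean (TMM) factors 1.24, while the other intervals stood at −1.82, −0.50 and −0.13. Directions below are therefore relative to the library's summed reads, and each is best read against the median of all intervals in the same strain and readout, which was −1.61 in the control and −1.40 in the ET strain on T>C reads and −1.21 and −0.99 on total reads. For T>C reads, the calls that held on all 4 scalings in the control strain were the falls of YNCD0013C and YNCH0003C and the rise of SNR61.

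**Figure D1:**
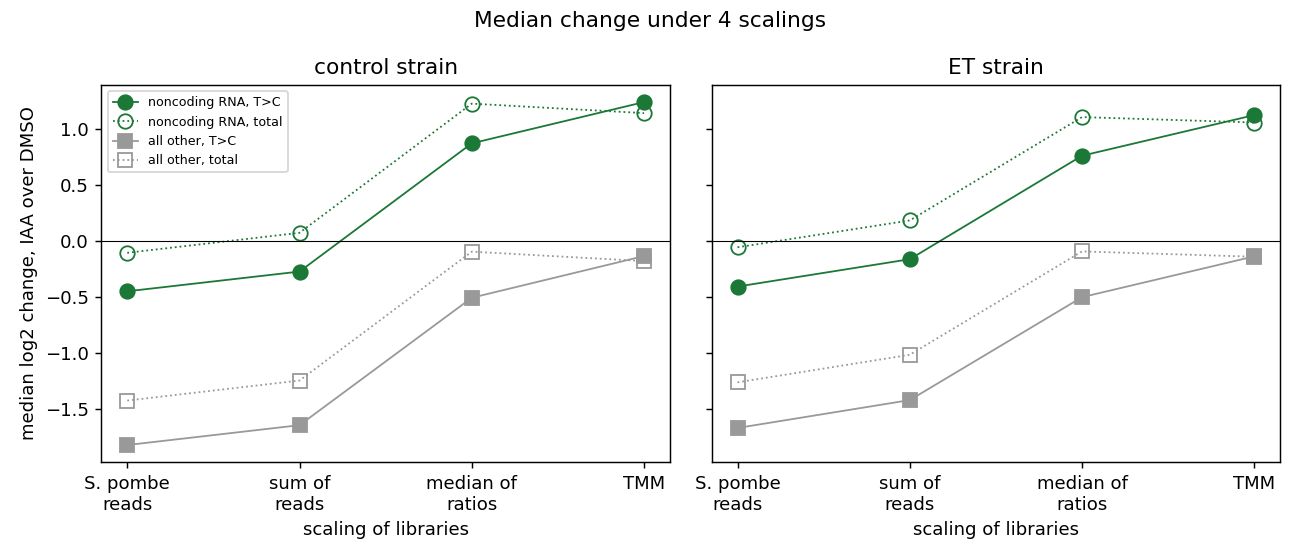
Median log2 change after IAA (vertical axis) under 4 scalings of the libraries (horizontal axis), in the control strain and in the ET strain, for noncoding RNA intervals and all other intervals and for T>C and total reads. Both medians move together with the scaling, from −0.45 and −1.82 on S. pombe reads to 1.24 and −0.13 on TMM factors for T>C reads of the control strain.

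**Figure D2:**
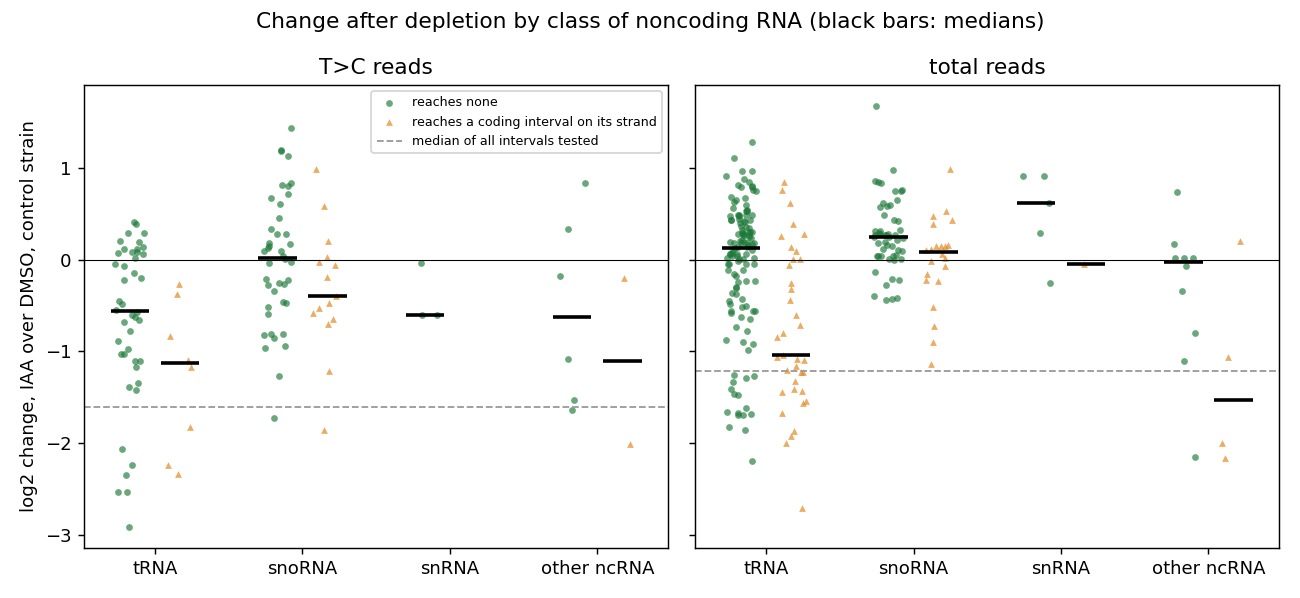
Log2 change after IAA in the control strain (vertical axis) of each tested noncoding interval by class, for T>C reads and for total reads, with intervals that reach a coding interval on their strand marked apart. Black bars are medians of each class, taken apart by reach of a coding interval. The dashed line is the median of all intervals tested, −1.61 for T>C and −1.21 for total reads. It lies below every bar except that of the other noncoding RNAs that reach a coding interval, at −1.53 on total reads.

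Total reads, of which only a few percent were new, gave the same order. In the control strain 55 of the 257 tested noncoding intervals fell and 46 rose, where 76.2% and 6.36% of all intervals tested did. The median was 0.08 against −1.24 for the other intervals. In the ET strain 47 fell and 65 rose, where 74.9% and 6.45% did, with medians of 0.19 and −1.01, and without ET IAA replicate B 41 rose. The intervals that reached a coding interval differed from the rest in both readouts. On T>C reads 9 of 25 of them fell (median −0.53) against 18 of 95 without such overlap (median −0.23), and on total reads 29 of 64 fell and 7 rose (median −0.29) against 26 and 39 of 193 (median 0.17). These are counts, and the difference between both sets was not tested.

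tRNA intervals held most of the noncoding falls, although a smaller share of them fell than of all intervals. On T>C reads 16 of 52 tested tRNA intervals fell (30.8%, where 79.7% of all tested did) and none rose (0.925% of all), with a median of −0.61. At an unadjusted p under 0.05 in either direction there were 17, where 3005 of all 3677 intervals tested were. Without those that reach a coding interval 11 of 44 fell (median −0.56), and with them 5 of 8 (median −1.13). The tRNA-Arg gene YNCD0013C, which reaches no coding interval, had 40.5, 76.8 and 32.0 scaled T>C reads in control DMSO libraries A, B and C, and 8.54, 9.56 and 7.93 under IAA. The ET strain had 63.2, 73.7 and 70.9 under DMSO and 9.05, 9.72 and 15.9 under IAA. No IAA library reached the lowest DMSO library in either strain. The log2 change was −2.53 (SE 0.352, adjusted p = 1.19e-11, edgeR) in the control strain, 0.93 below the median of all intervals, and −2.55 (SE 0.308) in the ET strain.

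YNCL0039W, a tRNA-Ser gene with no coding interval in reach, went from 77.0, 26.8 and 47.5 scaled T>C reads in control DMSO to 17.1, 6.37 and 6.80 under IAA. Its log2 change was −2.24 (SE 0.345) in the control strain and −2.09 (SE 0.333) in the ET strain. YNCM0010W, tRNA-Glu, fell by 1.34 (SE 0.364) on the log2 scale in the control strain and by 0.99 in the ET strain. These falls lay on both sides of the median of all intervals: that of YNCL0039W was 0.64 below it and that of YNCM0010W was 0.27 above it. SUF16, a tRNA-Gly gene named for frameshift suppression, fell by 0.66 (SE 0.27) in the control strain only, with a value of −0.34 (adjusted p = 0.168) in the ET strain, and the fall was not called without control DMSO replicate C (−0.58) or control IAA replicate A (−0.56). The difference between the strains was not called for any of them. SUF16 and the H/ACA gene SNR33, next to it by systematic name (YNCC0007C and YNCC0006C), had close counts. Over the 12 libraries they had 11420 and 12914 reads and 595 and 697 T>C reads. Whether the fall of SUF16 comes from reads of SNR33 was not tested. Below the level of 20 mean T>C reads set for naming, YNCM0009C (tRNA-Ser, −2.91), YNCE0022C (tRNA-Lys, −2.53) and CDC65 (tRNA-Gln, −2.34) also fell.

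The 3′ extension of the interval of tRNA-Thr gene YNCH0003C reaches 45 bases into the interval of TIM10, a chaperone of the mitochondrial intermembrane space. It had 131, 139 and 133 scaled T>C reads in control DMSO and 26.7, 20.7 and 36.2 under IAA. In the ET strain it had 172, 141 and 208 under DMSO and 54.3, 42.1 and 62.8 under IAA, so that the groups stood apart in both strains. The changes were −2.23 (SE 0.224) and −1.70 (SE 0.194), and TIM10 itself changed by −2.10 in the control strain. YNCD0006W, tRNA-Ser, shares 57 bases with RPT2, a proteasome ATPase, and both fell, by 2.34 and by 2.41 on the log2 scale. YNCG0016C, tRNA-Glu, shares 11 bases with ERV14, a cargo receptor, and both fell, by 1.17 and by 1.01. Which of the shared reads belong to the tRNA interval was not tested.

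**Figure D3:**
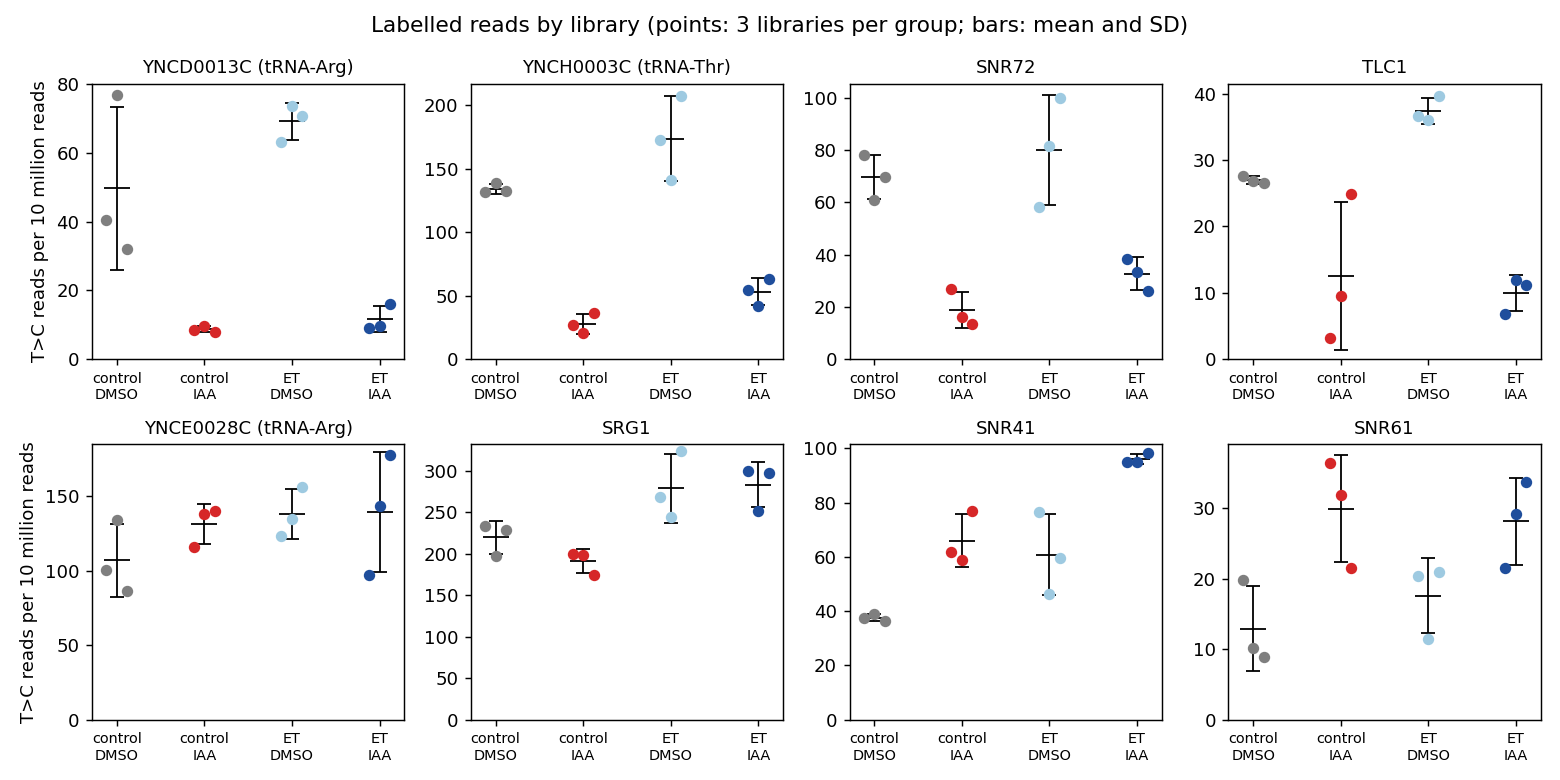
Scaled T>C reads, per 10000000 S. cerevisiae reads (vertical axes, starting at 0) in each of the 12 libraries of the 4 groups, for 8 noncoding intervals, with the mean and SD of each group. YNCD0013C, YNCH0003C and SNR72 lie lower in every IAA library than in any DMSO library of the same strain, SNR41 lies higher in the IAA groups, and the control IAA libraries of SNR61 (21.5 to 36.3) lie above its control DMSO libraries (8.84 to 19.7).

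Gene copies of the same tRNA did not move alike. The 275 tRNA genes had 70 distinct sequences, and 242 of the genes belonged to 37 sequences present in at least 2 copies, up to 16 copies of a tRNA-Gly gene. In 25 of these 37 families the copy with most reads had at least 10 times the reads of the copy with fewest. Of 24 families with at least 2 copies tested on total reads, 9 held both a copy that fell and a copy that rose in the control strain. Of these 9, only a tRNA-His family and the tRNA-Arg family printed above held no copy that reaches a coding interval. On total reads 23 of 37 tRNA intervals that reach one fell in the control strain (62.2%), against 21 of 125 that reach none (16.8%). Both shares are below the 76.2% of all intervals tested that fell. The identical tRNA-Arg genes printed above are an example, the first having the most reads of all tRNA intervals. YNCE0028C had 3688, 3295 and 3403 scaled total reads in control DMSO and 5966, 5609 and 5851 under IAA, a rise of 0.75 on the log2 scale (SE 0.0889). YNCD0013C had 262, 320 and 274 and then 74.7, 79.6 and 87.2, a change of −1.82 (SE 0.145). The ET strain had 3280, 3826 and 3985 and then 5116, 5900 and 6281 for YNCE0028C, and 281, 328 and 360 and then 96.2, 107 and 111 for YNCD0013C, in scaled total reads. For both genes the IAA and DMSO groups did not overlap in either strain, and both calls on total reads held on all 4 scalings in both strains. On T>C reads YNCE0028C had a value of 0.29 (adjusted p = 0.123). The remaining 3 copies, YNCK0017W, YNCO0012C and YNCL0007W, had means of 27.5, 11.2 and 2.0 reads. Reads that mapped to several places made up 0.474% of the reads of YNCE0028C and 0.467% of those of YNCD0013C. The first 60 bases downstream of the genes, shown above, were equal at 18 of 60 positions. The coding interval next upstream on the strand of YNCE0028C is YER160C, a Ty1 retrotransposon gene, 181 bases away.

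**Figure D4:**
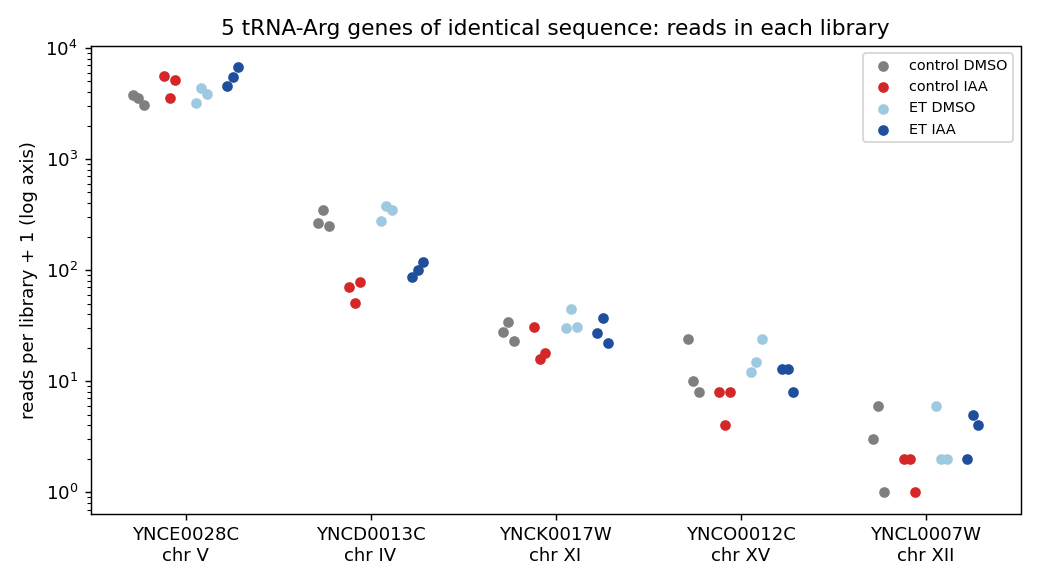
Reads per library plus 1 (vertical log axis) for 5 tRNA-Arg genes of identical sequence (horizontal axis, with their chromosomes), points being the 12 libraries coloured by group. YNCE0028C (mean 4395 reads) and YNCD0013C (mean 196 reads) differ in level and move in opposite directions with IAA.

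snoRNA intervals changed in both directions, with a median near that of no change on summed reads. On T>C reads 7 of 57 tested fell and 5 rose (12.3% and 8.77%, against 79.7% and 0.925% of all intervals), with a median of −0.04. Without coding overlap 4 of 42 fell and 5 rose (median 0.02), and with overlap 3 of 15 fell and none rose (median −0.39). By class the medians were 0.03 for 33 C/D intervals and −0.13 for 22 H/ACA intervals. On total reads 22 of 75 rose and 4 fell in the control strain (median 0.16), where 6.36% and 76.2% of all intervals did. Of the same 75, 33 rose and 3 fell in the ET strain (median 0.29), where 6.45% and 74.9% did. SNR40, the interval with most reads, had 16431, 9807 and 16410 scaled total reads in control DMSO and 17284, 19927 and 13297 under IAA, and its change of 0.24 (adjusted p = 0.135) was not called, whereas that of 0.45 (SE 0.150) in the ET strain was. Its T>C value was 0.28 (adjusted p = 0.29).

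Of the 5 rises 4 stood in 2 groups of neighbouring C/D snoRNA genes. Neighbours in a group share bases, so the same reads may count in more than 1 of these rises, which was not tested. On chromosome XVI the order along the minus strand is SNR41, SNR70 and SNR51, each interval sharing 153 or 170 bases with the next. SNR41 had 37.5, 38.9 and 36.5 scaled T>C reads in control DMSO, and 61.9, 58.9 and 77.0 under IAA. The ET strain had 76.4, 46.5 and 59.4 under DMSO, and 95.1, 95.1 and 98.3 under IAA. All 3 IAA libraries of a strain were above all of its DMSO libraries. The log2 change was 0.81 (SE 0.241, adjusted p = 0.00118, edgeR) in the control strain and 0.67 (SE 0.214) in the ET strain, and on total reads 0.98 and 0.93. SNR70 rose by 0.60 (SE 0.251) in the control strain, a call that was lost without control DMSO replicate B (0.52) and without control IAA replicate C (0.36). SNR51, named after its values were seen, had 0.59 (adjusted p = 0.0563). On total reads SNR70 was not called in the control strain, at 0.28 (adjusted p = 0.122, edgeR), and rose by 0.58 in the ET strain.

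On chromosome XII the order is SNR57, SNR55 and SNR61, with 108 and 129 bases shared. SNR61 had 19.7, 10.2 and 8.84 scaled T>C reads in control DMSO and 36.3, 31.9 and 21.5 under IAA, which do not overlap. It rose by 1.19 (SE 0.359) in the control strain and by 0.70 (SE 0.336, adjusted p = 0.0453) in the ET strain. The latter was not called without ET DMSO replicate B (0.46), ET IAA replicate B (0.68) or ET IAA replicate C (0.55). SNR55 rose by 0.83 (SE 0.33) in the control strain, not called without control DMSO replicate B (0.70), and had 0.21 (adjusted p = 0.541) in the ET strain. SNR57, the first gene, had −0.47 (adjusted p = 0.274) and was named after its values were seen. On total reads neither SNR61 nor SNR55 was called in the control strain, at 0.27 (adjusted p = 0.176, edgeR) and 0.20 (adjusted p = 0.333, edgeR). In the ET strain both rose on total reads, by 0.65 and 0.57. The last of the 5 rises in the control strain was the H/ACA gene SNR42, elsewhere in the genome, with few reads: 1.97, 3.70 and 1.10 scaled T>C reads in control DMSO against 7.47, 4.78 and 6.80 under IAA (log2 1.43). In the ET strain the C/D gene SNR66 rose by 1.08. Both were named after their values were seen.

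The third group, 7 C/D snoRNA genes in a row on chromosome XIII from SNR78 to SNR72, held falls. SNR72, the last, reaches 34 bases into BUD22, a gene for ribosome biogenesis. SNR72 had 78.0, 61.1 and 69.6 scaled T>C reads in control DMSO and 26.7, 15.9 and 13.6 under IAA. The ET strain had 58.1, 81.6 and 100 under DMSO and 38.5, 33.5 and 26.2 under IAA, again with no overlap. The change was −1.86 (SE 0.281) in the control strain and −1.29 (SE 0.247) in the ET strain, and BUD22 changed by −2.45 in the control strain. The genes before it were named after their values were seen. SNR76 fell by 0.96, SNR77 had −0.86 (adjusted p = 0.0737) and SNR73 had 0.80 (adjusted p = 0.136), all in the control strain. On total reads SNR73 rose by 0.74 (SE 0.14) while SNR72 fell by 0.73 (SE 0.126), and both intervals share 109 bases.

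Of the H/ACA intervals SNR31 fell by 0.81 (SE 0.294) in the control strain and had −0.04 (adjusted p = 0.891) in the ET strain. The fall was not called without control IAA replicate A (−0.65) or C (−0.60). SNR33, whose tail reaches 57 bases into CTO1 (means of 5.77 and then 0.755 scaled T>C reads in the control strain), fell by 0.70 (SE 0.25). Its counts were close to those of the tRNA-Gly interval SUF16, as given above, so both falls may not be separate. SNR9 fell by 0.64 (SE 0.214) in the ET strain, where it was not called without ET DMSO replicate C (−0.47) or ET IAA replicate A (−0.43). SNR9 had −0.26 (adjusted p = 0.312) in the control strain. Among snoRNA genes in introns SNR18 fell with its host EFB1, which encodes translation elongation factor 1B, by 0.65 (SE 0.302) and 0.67. Its interval lies wholly in that of EFB1. The fall was not called without control DMSO replicate A (−0.27), where it was smallest, or without control IAA replicate A or C, nor was that in the ET strain (−0.71) without ET IAA replicate C (−0.34). SNR24, in ASC1, fell in the ET strain by 0.62. SNR68 fell there by 0.83, and the tail of its interval reaches 102 bases into FLX1, which went from 15.9 to 2.69 scaled T>C reads by mean in the ET strain. SNR24 was not called without ET DMSO replicate A or C or ET IAA replicate A or C (−0.61 to −0.49), and SNR68 not without ET DMSO replicate C (−0.61) or ET IAA replicate A (−0.70). SNR10, an H/ACA snoRNA of ribosomal RNA processing, had 268, 317 and 283 scaled total reads in control DMSO and 576, 476 and 660 under IAA, a rise of 0.99 (SE 0.117). Its T>C value was −0.19 (adjusted p = 0.553). SNR17A, which shares 328 bases with IRC13, and SNR17B, the U3 genes, had T>C values of −0.53 (adjusted p = 0.168) and −0.34 (adjusted p = 0.595). SNR30, which is needed for 18S ribosomal RNA, had 0.10 (adjusted p = 0.885) on T>C reads and rose by 0.83 on total reads.

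Coding partners of overlapping intervals mostly fell, as most coding intervals did. Of the 9 overlapping intervals that fell on T>C reads in the control strain 7 had a tested coding partner, and all 7 of those had a partner that fell. Of the 16 that were tested and not called 12 had a tested partner, and 5 of those had a partner that fell. Over all coding intervals tested 82.0% fell, so that the 7 of 7 says little about the pairs, and no test of the association was made.

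Few snRNAs had enough T>C reads to test. LSR1 had 31.6, 37.9 and 42.0 scaled T>C reads in control DMSO and 28.8, 38.2 and 41.9 under IAA, which overlap, and its change was −0.04 (SE 0.277, adjusted p = 0.9). SNR7-L and SNR7-S, the forms of U5, shared all their reads. They had −0.60 (adjusted p = 0.394) in the control strain and rose by 1.36 (SE 0.596) in the ET strain, where the value rested on ET IAA replicate A with 14.7 scaled T>C reads. Without that library it was 0.60 (adjusted p = 0.453), and without ET DMSO replicate A 0.99 (adjusted p = 0.132). On total reads 4 of 6 snRNA intervals rose in the control strain and 5 in the ET strain, where 6.36% and 6.45% of all intervals did, with none lower. Both forms of U5 are among them and hold the same reads, so that these are 3 and 4 of 5 distinct sets of reads. SNR19, the U1 snRNA, rose by 0.61 (SE 0.256) and U5 by 0.91 (SE 0.235). SNR6, the U6 snRNA made by RNA polymerase III, had −0.25 (adjusted p = 0.26), and SNR14, the U4 snRNA, had −0.05 (adjusted p = 0.911).

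Of the RNAs with enzymatic or structural roles, TLC1, the template RNA of telomerase, fell. It had 27.6, 26.8 and 26.5 scaled T>C reads in control DMSO and 3.20, 9.56 and 24.9 under IAA, and in the ET strain 36.7, 36.0 and 39.6 and then 6.79, 11.9 and 11.2. The control IAA libraries were spread widely, and those of the ET strain lay well below their DMSO libraries. The changes were −1.09 (SE 0.371, adjusted p = 0.00497) and −1.88 (SE 0.357). Without control IAA replicate A the former was −0.57 (adjusted p = 0.176). SCR1, the RNA of the signal recognition particle, fell by 1.63 (SE 0.696) in the control strain on few reads, 3.95, 10.2 and 5.52 against 2.13, 3.19 and 1.13 scaled T>C reads, and was not called without control DMSO replicate B (−1.15) or control IAA replicate A (−1.67) or C (−1.33). NME1, the RNA of RNase MRP, had 0.84 (adjusted p = 0.0908) in the control strain and rose by 0.98 (SE 0.417) in the ET strain. That rise was not called without ET DMSO replicate A (0.77) or B (0.87) or ET IAA replicate B (0.78). RPR1, the RNA of RNase P, could only be tested on total reads, with −0.07 (adjusted p = 0.708) in the control strain and a rise of 0.39 in the ET strain.

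Noncoding RNAs transcribed across a promoter or antisense to a gene gave different pictures. SRG1 runs across the promoter of SER3, a gene of serine synthesis that it represses, and shares 327 bases with the SER3 interval. SRG1 had 234, 197 and 229 scaled T>C reads in control DMSO, and 200, 199 and 174 under IAA. The ET strain had 268, 244 and 324, and then 300, 252 and 298. IAA and DMSO groups overlapped in both strains, and the changes were −0.20 (adjusted p = 0.191) and 0.03 (adjusted p = 0.872), which lay 1.40 and 1.42 above the median of all intervals. SER3 rose by 1.34 and 1.29. The T>C reads of SRG1 were 32.1% of its reads in control DMSO, 24.3% in control IAA, 35.8% in ET DMSO and 27.3% in ET IAA.

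ICR1, transcribed across the promoter of the adhesin gene FLO11, had too few T>C reads to test. It shares 553 bases with YIR020C and 42 with FLO11. Its scaled total reads were 82.9, 56.4 and 87.3 in control DMSO and 24.6, 17.5 and 7.93 under IAA, a change of −2.16 (SE 0.309), and −1.24 in the ET strain. IRT1, upstream of the meiotic regulator IME1, fell by 1.53 (SE 0.656) on T>C reads in the control strain and had −0.90 (adjusted p = 0.0971) in the ET strain. The fall of IRT1 was not called without control DMSO replicate A or C or control IAA replicate A or C (−1.48 to −1.38). RME2, antisense to IME4, fell by 2.01 (SE 0.498) and by 1.09 (SE 0.421), the latter not called without ET DMSO replicate C (−0.75) or ET IAA replicate B (−0.72). The RME2 gene overlaps the coding gene YGL193C, with 562 bases shared by the intervals, and YGL193C changed by −1.76 in the control strain. The tail of its interval also reaches 79 bases into HOS2, a histone deacetylase gene, which changed by −2.13. RME3, antisense to another meiotic gene, fell by 2.15 (SE 0.453) on total reads. TBRT, which is antisense to the amino acid transporter gene TAT1, went the other way. It had 13.8, 22.2 and 12.2 scaled T>C reads in control DMSO and 18.1, 23.9 and 20.4 under IAA, which overlap, but 19.4, 22.8 and 25.0 and then 49.8, 41.0 and 30.0 in the ET strain, which do not. The change was 0.34 (adjusted p = 0.385) in the control strain and 0.83 (SE 0.304) in the ET strain, the latter not called without ET IAA replicate A (0.65). On total reads TBRT rose in both strains, by 0.73 and 0.97. RUF20, antisense to SEC4, had −0.17 (adjusted p = 0.433), and SEC4 itself fell by 1.61.

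Without depletion few noncoding intervals were called between the ET and the control strain. Under DMSO no noncoding interval differed on T>C reads between the ET and the control strain in edgeR, where 0.19% of all tested did. At an unadjusted p under 0.05 there were 28 of 120, where 546 of all 3677 intervals tested were. DESeq2 called 1, and leaving out single libraries gave at most 2. The median was 0.41, against 0.23 for all intervals tested. On total reads 1 was lower and 1 higher, where 0.808% of all were called in either direction, and leaving out control DMSO replicate B or C or ET DMSO replicate B or C gave 0. The higher was the H/ACA snoRNA gene SNR83, named after its value was seen.

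Under IAA 11 noncoding intervals were higher in the ET strain and 1 was lower, where 13.3% and 0.299% of all intervals tested were. The median of 0.50 was close to that of 0.45 for all intervals. Of the 11, 6 were among the 25 tested that reach a coding interval on their strand (24%). The other 5 were among the 95 that reach none (5.26%). The 6 were SRG1, YNCH0003C, YNCD0006W, SNR33, YNCK0021W and YNCO0011W, and which of the shared reads differ was not tested. All 352 bases of the YNCO0011W interval lie in that of YOL013W-A. Both had the same T>C changes after IAA, so their reads cannot be told apart. SUF16 and SNR33 had close counts, as given above. SRG1 was higher by 0.57 (SE 0.145, adjusted p = 0.00392), a call kept whichever library was left out. YNCH0003C was higher by 0.90, YNCD0006W by 1.26, SUF16 by 0.88, YNCK0021W by 0.76, YNCO0011W by 0.61, SNR33 by 0.84, SNR13 by 0.90 and TBRT by 0.96. Each of these 8 lost its call when some single library was left out: YNCH0003C and SUF16 without control IAA replicate A or ET IAA replicate C, as did SNR33, YNCD0006W without control IAA replicate A (0.75), control IAA replicate B (1.30) or ET IAA replicate B (1.00), YNCK0021W without control IAA replicate B or C or ET IAA replicate B, TBRT without control IAA replicate A or C or ET IAA replicate A or B, and SNR13 and YNCO0011W without most of the IAA libraries. SNR46 (1.62) and SNR47 (1.55), an H/ACA and a C/D snoRNA gene with few T>C reads, complete the 11 and were named after their values were seen. On S. pombe reads none of the 12 was called, and on median-of-ratios or TMM factors 1 was. Leaving out control IAA replicate A or ET IAA replicate C gave 5 calls in either direction, and leaving out control IAA replicate B or C or ET IAA replicate B gave 7. On total reads 36 noncoding intervals were higher in the ET strain under IAA and 3 lower, where 28.3% and 3.52% of all tested were. Leaving out ET IAA replicate B gave 12 calls in either direction, control IAA replicate A 26 and control IAA replicate C 24.

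The effect of depletion did not differ between the strains for any noncoding interval by the interaction term. On T>C reads edgeR called 0 of 120, with 3 at an unadjusted p under 0.05 and 0 in DESeq2, where 0.0272% of all tested were called. On total reads it called 0 of 257, with 14 unadjusted and 0 in DESeq2, where 0.103% were called. Over all intervals tested, 306 of 3677 on T>C reads and 1034 of 5817 on total reads had an unadjusted p under 0.05. A p that misses the threshold does not show that the strains were alike, and the standard errors on T>C reads were wide.

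The labelled share, T>C reads as a percent of all reads of a class, was higher in the noncoding intervals as a whole than in coding ones, though not in every class. Summed over the 381 it was 4.40% ± 0.23 in control DMSO, 3.04% ± 0.30 in control IAA, 5.28% ± 0.70 in ET DMSO and 3.54% ± 0.39 in ET IAA (SD, n = 3 each). Coding intervals had 2.66% ± 0.0512, 1.36% ± 0.0768, 3.08% ± 0.286 and 1.71% ± 0.0958. tRNA intervals stood at 6.03%, 3.89%, 7.14% and 4.92%, H/ACA at 4.76%, 3.42%, 6.14% and 4.31%, C/D at 2.31%, 1.92%, 2.92% and 1.99% and snRNA at 1.21%, 0.881%, 1.38% and 1.21%. The other noncoding RNAs were highest, at 14.9%, 12.4%, 16.5% and 13.8%, but SRG1 and RUF20 held 75.2% of their T>C reads. Without both, the remaining 22 stood at 6.56% ± 0.618, 4.11% ± 0.825, 7.11% ± 0.71 and 5.19% ± 0.675 (SD, n = 3 each). In control DMSO RUF20 had 24.5%, SCR1 5.48%, TLC1 3.26%, NME1 2.91% and RPR1 0.761%. The share was lower under IAA in every class in both strains, by mean. Noncoding intervals held 1.15% of all T>C reads in control DMSO and 1.65% in control IAA, and 1.30% and 1.80% in the ET strain. Of all reads they held 0.696%, 0.747%, 0.762% and 0.886% in the same order of groups.

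**Figure D5:**
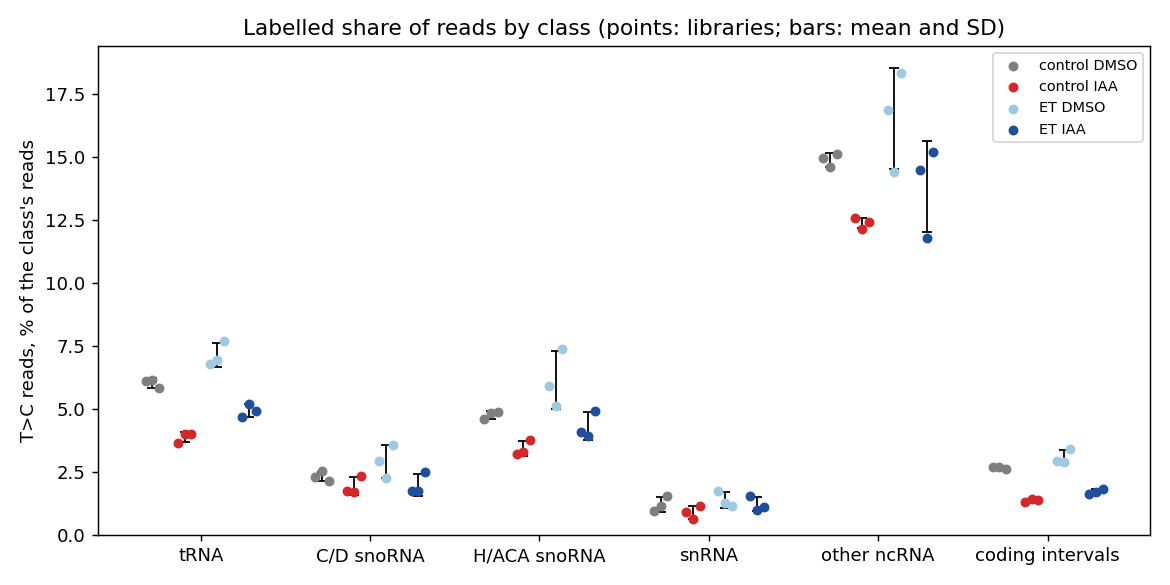
T>C reads as a percent of all reads of a class (vertical axis, starting at 0) for classes of noncoding RNA and for coding intervals (horizontal axis), points being libraries coloured by group, with mean and SD. The other noncoding RNAs, most of whose T>C reads come from SRG1 and RUF20, are highest (14.9% in control DMSO), snRNA lowest (1.21%), and the IAA means lie below the DMSO means of the same strain.

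Reads that map to several places were rare in noncoding intervals despite the identical tRNA copies. They made up 0.376%, 0.372%, 0.415% and 0.371% of reads in control DMSO, control IAA, ET DMSO and ET IAA, against 0.510%, 0.498%, 0.570% and 0.550% over all intervals. No multimapping read was found in 149 of the 381. Of the 257 with at least 120 reads in the 12 libraries together, 53 had none and 18 had over 2%. The highest was YNCB0004W, tRNA-Ile, with 279 of 300 reads (93.0%), followed by YNCC0001C with 12.1% and SNR56 with 6.75%. The remaining ones were at 3.24% or lower. How the aligner placed reads that fit several copies was not tested.

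Genes for proteins that bind or process these RNAs mostly lost T>C reads. From a list of 34 such genes (C/D and H/ACA proteins, RNase P and MRP, signal recognition particle, telomerase and processing enzymes), 26 were tested on T>C reads. After IAA 25 fell and none rose in the control strain, where 79.7% of all intervals tested fell, with a median of −1.88 against −1.61. In the ET strain 25 fell, where 79.6% of all did (median −1.60 against −1.40). NOP1, the methylase of box C/D particles, fell by 0.91 and NOP58, a core protein of those particles, by 1.39. CBF5, the pseudouridine synthase of H/ACA particles, fell by 1.67 and TRZ1, the tRNA 3′ endonuclease, by 3.14. RPM2, a protein of mitochondrial RNase P, had 0.13 (adjusted p = 0.493). Between strains 5 were higher in the ET strain under IAA, where 13.3% of all intervals were, among them GAR1 (0.90) and NHP2 (0.92) of the H/ACA particle, and none differed under DMSO.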

How the data were processed

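The deposited tables gave, for each library and annotated interval, the count of reads, of T>C reads and of multimapping reads. The authors had trimmed paired-end reads of 150 bases with fastp 0.23.2 and bbduk and aligned, filtered and counted them with SLAM-DUNK 0.4.3 against S. cerevisiae and the S. pombe spike-in. Replicates were not pooled, and conversion rates in the tables were not used. Whether reads shared by overlapping intervals were counted for each is not given in the sources used here. YNCO0011W and YOL013W-A, which share 352 bases, had identical T>C changes and standard errors in both strains, and SNR7-L and SNR7-S held the same reads. In these cases shared reads counted for each interval.

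Changes were tested with R 4.3.3 and edgeR 4.0.16. A quasi-likelihood model of the 4 group means over all 12 libraries was fitted to T>C counts of all intervals where no library of these 12 had 0 of them (the study's methods apply such a filter over more libraries), and to total counts averaging 10 or more. The offset was each library's summed S. cerevisiae reads. The methods derive factors from total read counts, which can also be read as median-of-ratios factors, so these were an alternative, as were S. pombe reads, TMM factors, other filters, DESeq2 1.42.0, 2-group fits, a replicate block, leaving out each library and leaving out intervals that reach a coding interval. The p-values were adjusted by Benjamini-Hochberg over all intervals tested, at 0.05. The model was tested on simulated counts. Standard errors are those of the log2 changes. p-values measure the spread between the labelled biological replicates.

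The intervals and the lists were chosen with earlier results of these data known. Named were RNAs of known role, for each T>C comparison the largest called rises and falls (up to 6 each, taken apart by coding overlap) among intervals averaging 20 or more such reads, and the 5 intervals with most reads in each class. Deviations of same-lettered libraries were weakly correlated at most (18 correlations from −0.103 to 0.0888), so no block was used in the main fit. Between ET DMSO and ET IAA the same-letter values were 0.0723, 0.0757 and 0.0888. All different-letter values of these 2 groups were lower (−0.0642 to −0.0117). The sequence and single values of 1 interval that this rule names are not reported here. Multimapping and labelled shares were described without a test.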

Additional observations from a re-analysis of the deposited data

How the results depend on the processing

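The scaling decided most counts of calls. On T>C reads of the control strain, the 27 falls and 5 rises became 8 and 46 on median-of-ratios factors and 2 and 67 on TMM factors, and S. pombe reads left 1 rise. Those of the ET strain, 25 falls and 7 rises, became 7 and 48, then 2 and 68, and S. pombe reads left 0 rises. Between the strains under IAA the 12 calls became 1, 1 and 0 on median-of-ratios, TMM and S. pombe scaling. On total reads, falls and rises of the control strain (55 and 46) became 9 and 190 on median-of-ratios and 15 and 186 on TMM factors, with 21 rises on S. pombe reads. Those of the ET strain (47 and 65) became 5 and 192, then 6 and 190, with 12 rises on S. pombe reads. The 39 calls between strains under IAA became 12, 11 and 19 on median-of-ratios, TMM and S. pombe scaling, and the 2 under DMSO became 1 on median-of-ratios and 1 on TMM factors.

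Other settings moved fewer counts. Without the T>C filter 47 intervals fell in the control strain, among more intervals tested. A mean T>C minimum of 5 left 4 rises in the ET strain and DESeq2 left 2. Under DMSO, DESeq2 called 1 interval on T>C reads and 5 on total reads, and the 2-group fit called 1 on T>C reads. A mean of at least 50 total reads left 27 and 25 falls in the control and the ET strain. Without intervals that reach a coding interval, by fewer intervals tested, 15 fell in the ET strain and 6 differed between strains under IAA on T>C reads, and 26 and 21 fell on total reads.

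Some named T>C values changed sign. In the control strain they were, on median-of-ratios and then TMM factors, 0.50 and 0.87 for SNR18, 0.062 and 0.43 for TLC1, 1.11 and 1.48 for LSR1, 0.44 and 0.82 for SNR33, 0.48 and 0.86 for SUF16, 0.95 and 1.32 for SRG1 and 0.33 and 0.70 for SNR31. On TMM factors alone YNCM0010W had 0.17 and SNR17A 0.98. In the ET strain the pairs were 0.21 and 0.58 for SNR18, 0.70 and 1.06 for LSR1, 0.089 and 0.46 for SNR68, 0.30 and 0.68 for SNR24 and 0.28 and 0.65 for SNR9. On TMM factors alone RME2 had 0.20, YNCM0010W 0.31, SNR72 0.0088 and SNR17A 0.86. All these changes of sign follow from the shift of all intervals with the scaling.

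Leaving out single libraries gave 18 to 28 falls and 4 to 8 rises on T>C reads in the control strain, 18 to 27 and 4 to 8 in the ET strain, 0 to 2 calls between strains under DMSO, 5 to 14 under IAA and 0 to 0 for the interaction. On total reads the ranges were 51 to 58 and 32 to 57 in the control strain, 41 to 51 and 41 to 69 in the ET strain, 0 to 4 under DMSO, 12 to 51 under IAA and 0 to 0 for the interaction. With the letters as a replicate block 26 intervals fell and 5 rose in the control strain on T>C reads, and SNR18 (−0.62) alone of the named intervals lost its call. Depth limited what could be tested, since 14 of the 381 intervals had no T>C read and 247 had some in part of the libraries only.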
